A study of Mus musculus with 4 samples.

Results

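The genes described here encode the subunits of the troponin complex and the actins of muscle thin filaments: troponin I (Tnni1, Tnni2, Tnni3), troponin T (Tnnt1, Tnnt2), troponin C (Tnnc1, Tnnc2) and the actins Actc1, Acta1 and Acta2. They are 10 of the 32285 genes in the count tables, were chosen by their symbols and function, and were all present. Hearts of mouse embryos of the C57BL/6J background were dissociated at stage E10.5 and sequenced as droplet single-cell libraries. Wild-type (Wt) embryos gave the libraries Wt1 and Wt2, and embryos homozygous for the Cyp51 I383V point mutation (Ho), a CRISPR/Cas9 knock-in of lanosterol 14α-demethylase carried by every cell of the embryo, gave Ho1 and Ho2. How many hearts entered a library is not given in the sources used here, so p-values measure the spread between libraries, which may be in part technical.

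The thin filament is a polymer of actin lined by tropomyosin and troponin. Troponin C binds calcium, troponin I inhibits the filament until calcium binds, and troponin T holds the complex on tropomyosin. Each subunit comes from a small gene family with forms named after slow skeletal, fast skeletal or cardiac muscle, and the embryonic heart uses some skeletal and smooth muscle forms that the adult heart replaces: Tnni1 precedes Tnni3, and Acta2 and Acta1 accompany Actc1.

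The smooth muscle and skeletal actins are controlled in many tissues through the CArG box, the binding site of serum response factor, and the MCAT element (CATTCC), the binding site of TEAD factors. Promoters of the 3 actin genes are shown because the make-up of the actin pool differed between the chambers, 250 bases before to 50 after the transcription start of RefSeq models on GRCm38.p6, all on the minus strand, with matches to either motif on either strand in capitals. They lie at chr8:123894726-123895025 (Acta1), chr2:114052826-114053125 (Actc1) and chr19:34255324-34255623 (Acta2).
Acta1: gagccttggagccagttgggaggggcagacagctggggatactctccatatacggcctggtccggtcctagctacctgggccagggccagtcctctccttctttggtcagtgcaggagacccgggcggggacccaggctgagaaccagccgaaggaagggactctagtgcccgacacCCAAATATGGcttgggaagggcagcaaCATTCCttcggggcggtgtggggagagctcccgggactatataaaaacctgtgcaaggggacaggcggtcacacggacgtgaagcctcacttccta
Actc1: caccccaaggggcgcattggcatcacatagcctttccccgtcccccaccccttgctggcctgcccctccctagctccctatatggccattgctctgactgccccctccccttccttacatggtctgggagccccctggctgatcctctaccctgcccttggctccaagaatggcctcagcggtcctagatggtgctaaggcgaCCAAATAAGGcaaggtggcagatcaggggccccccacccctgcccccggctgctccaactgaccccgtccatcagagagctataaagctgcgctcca
Acta2: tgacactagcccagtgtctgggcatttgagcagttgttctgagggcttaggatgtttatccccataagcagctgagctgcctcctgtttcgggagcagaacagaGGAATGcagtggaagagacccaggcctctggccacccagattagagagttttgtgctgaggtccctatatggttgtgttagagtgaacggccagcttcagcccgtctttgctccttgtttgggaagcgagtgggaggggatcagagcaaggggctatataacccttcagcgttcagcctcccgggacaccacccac
The CArG letters searched were CC, then 6 bases that are each A or T, then GG. This CArG box lay 73 bases before the start of Acta1 and 47 before that of Actc1, and this strict form was not in the window of Acta2. The CArG boxes known in the Acta2 promoter have a G or C within the A and T core, and such forms were not searched. Among the 9 members with a RefSeq promoter the strict form was found in Acta1 and Actc1 only, against 1.63% of 32851 promoter windows of this length. The MCAT letters were in the windows of Acta1, Acta2, Tnnc1 and Tnnt2, and in 14.7% of all windows. No motif occurrence was tested against expression.

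The 4 libraries held 109893733, 117034633, 127018819 and 107377100 (Wt1, Wt2, Ho1, Ho2) unique molecular identifiers (UMIs), each standing for a captured mRNA molecule. After filters on cells and the removal of doublets, 8908, 7154, 6980 and 6126 cells remained, with median depths of 10561, 14215.5, 15658 and 15831.5 UMIs. Libraries shared between 14 and 34 cell barcodes by pair. Ho1 stood apart with 28877 UMIs of the X-linked transcript Xist, against 5 in Wt1, 4 in Wt2 and 2 in Ho2, and Wt1 held the largest share of mesenchymal cells. Xist is transcribed from the inactive X chromosome of female cells, so the sex of the embryos may differ between the libraries, and its part in the values of Ho1 was not tested. Transcript levels of Cyp51, which cannot show a point mutation in a 3′ count, were 66.4, 63.0, 60.7 and 71.7 CPM over the same order of libraries in the myocytes defined next.

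Myocytes were cells with at least 50 Myl7 UMIs per 10000, called Myl7 cells, and numbered 1634, 2496, 3436 and 2364 (Wt1, Wt2, Ho1, Ho2). They were divided by 3 genes that were not members. Myl2 cells (560, 999, 1306 and 667, in the same order) had at least 10 Myl2 UMIs per 10000 and no Stard10 or Shox2. Stard10 cells (329, 527, 615 and 431) had less Myl2, Stard10 and no Shox2, and Shox2 cells (329, 348, 494 and 593) had less Myl2 and at least 1 Shox2 UMI. Unmarked cells (260, 311, 328 and 341) had less Myl2 and neither other gene. Other chamber genes followed these gates: the ventricular factor Irx4 was at 48.5, 47.0, 47.4 and 61.8 CPM in Myl2 cells and at 0.395 to 1.85 in Stard10 cells. The atrial factor Nr2f2 was at 59.7, 52.8, 46.6 and 62.8 CPM in Stard10 cells and at 0.878 to 2.91 in Myl2 cells. In Shox2 cells it was at 74.8, 77.4, 63.7 and 71.0 CPM, so it did not mark Stard10 cells alone. The pacemaker channel Hcn4 was at 90.5, 67.4, 65.1 and 94.5 CPM in Shox2 cells against 9.73 to 11.7 in Stard10 cells, as in the sinus venosus. Shox2 cells were 25.1% of the Myl7 cells in Ho2 and 13.9% to 20.1% in the other libraries, and the median depth of Myl2 cells was 8720 UMIs in Wt1 against 17797 to 19701 elsewhere.

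Levels are given as CPM, counts per 1000000 UMIs of the summed cells; since 3′ counting registers a molecule once, these can be compared between genes without scaling by length. Together the members made up 3.19%, 3.45%, 3.03% and 3.15% of all UMIs of the Myl7 cells (Wt1, Wt2, Ho1, Ho2). Actc1 was the most abundant at 12985 ± 1032 CPM (SD, n = 4), followed by Tnnc1 at 5825 ± 595, Acta2 at 5571 ± 695 and Tnnt2 at 3505 ± 128. The difference between Tnnc1 and Acta2 was within the spread of the libraries. Tnni1 at 1761 ± 131 and Tnni3 at 1575 ± 188 also overlapped, so that the heart at this stage held the slow skeletal and the cardiac troponin I transcripts in nearly equal amounts. Acta1 was at 627 ± 50.9, Tnnt1 at 112 ± 16.3, Tnni2 at 91.9 ± 9.98 and Tnnc2 at 1.23 ± 0.152 CPM.

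**Figure D1:**
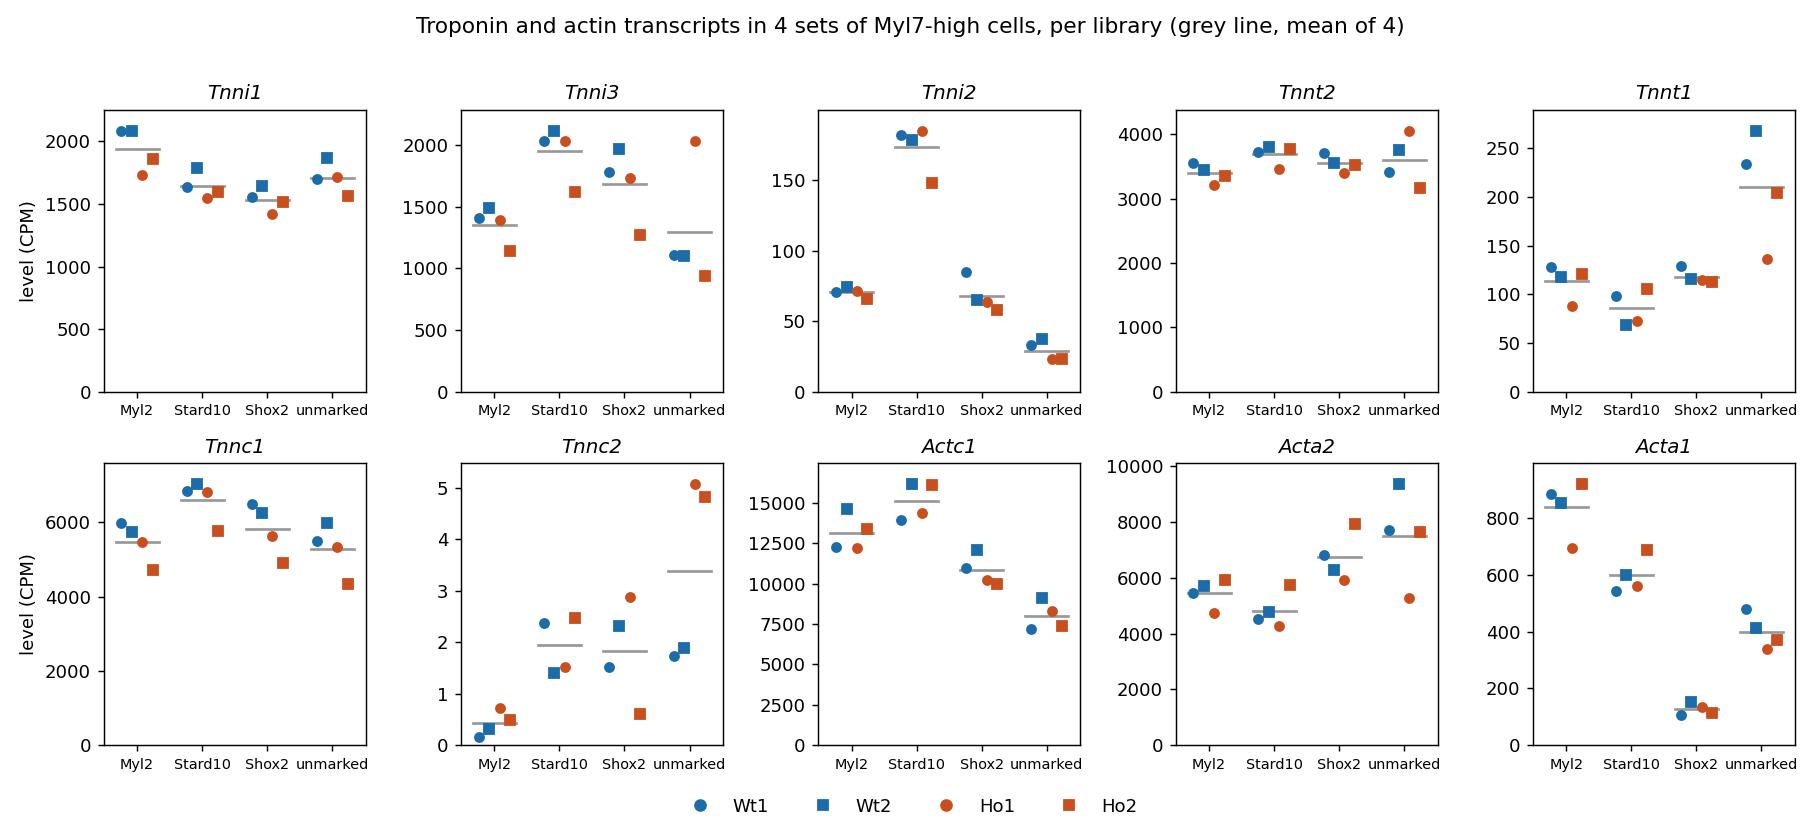
Level in CPM (vertical axes, each from 0) of the 10 genes in Myl2, Stard10, Shox2 and unmarked Myl7 cells; points are libraries (blue Wt, orange Ho) and grey lines the mean of 4. Acta1 lies between 108 and 152 CPM in Shox2 cells and above 330 in the other gates, and Tnni2 is highest in Stard10 cells.

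The chambers differed in most of these genes. Acta1 was the most unequal, 7.47-fold lower in Shox2 than in Myl2 cells, and Tnni2 was 2.35-fold higher in Stard10 than in Myl2 cells, while Tnnt2 differed by at most 1.13-fold. Myl2, Stard10 and Shox2 sums of the 4 libraries were compared in 1 edgeR fit with the library as a block, and all 10 members passed its filter on low counts. In Stard10 against Myl2 cells 5 of 10 members were called higher and 4 lower at an adjusted p under 0.05, beside 16.9% and 17.6% of the 12918 genes tested. In Shox2 against Myl2 cells 3 were higher and 5 lower, beside 27.9% and 27.2%, and in Shox2 against Stard10 cells 2 were higher and 7 lower, beside 18.8% and 20%. Among genes of at least 50 CPM, the range of all members but Tnnc2, 49.5%, 73.2% and 61.1% were called in either direction in these contrasts, so that a call alone does not set an abundant gene apart. The median log2 fold change of the members was 0.105, -0.116 and -0.263, against -0.000157, 0.0185 and 0.00636 over all genes.

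Scaling mattered for the small differences. TMM factors place the median gene near 0; scaling by total UMIs, chosen after the data were seen, moved that median to 0.0551, 0.195 and 0.129 in the 3 contrasts and raised the share of calls that were higher from 48.9% to 61.4%, from 50.6% to 71.7% and from 48.5% to 72.1%. Differences of this size are relative to the rest of the transcriptome, and members whose direction or call turned with the scaling are named with both values.

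**Figure D2:**
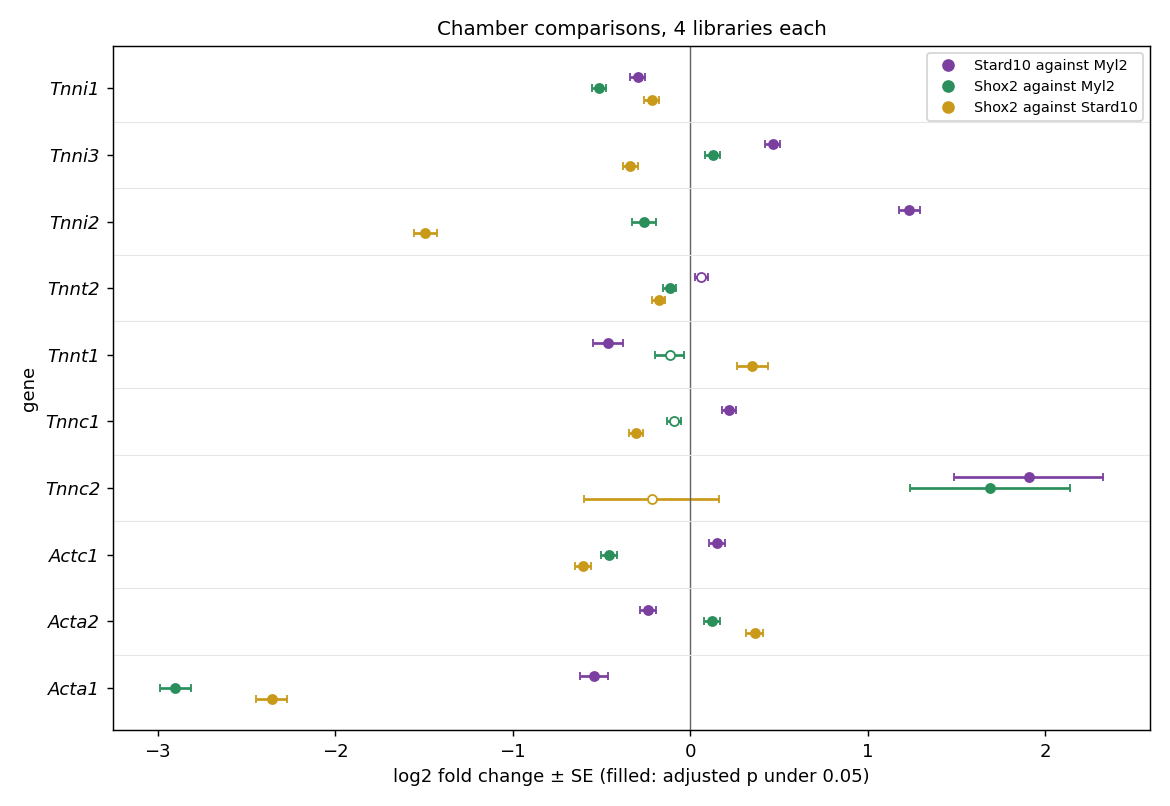
Log2 fold change ± SE (horizontal axis) of each gene between Myl2, Stard10 and Shox2 cells, from 4 libraries; filled points have an adjusted p under 0.05. Acta1 has the largest differences, -2.90 and -2.36 in Shox2 cells, and Tnni2 is higher in Stard10 cells than in either other gate.

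Of the troponin I genes, Tnni1, the slow skeletal form of the early heart, was at 2079 (Wt1), 2084 (Wt2), 1735 (Ho1) and 1855 (Ho2) CPM in Myl2 cells. It was at 1635, 1787, 1545 and 1597 in Stard10 cells and at 1555, 1642, 1420.0 and 1514 in Shox2 cells. Every library held less in Stard10 than in Myl2 cells and least in Shox2 cells. Myl2 and Shox2 cells did not overlap, and Stard10 cells overlapped both. The log2 fold change was -0.30 (SE 0.040, adjusted p = 2.84e-06, edgeR) in Stard10 and -0.52 (SE 0.040, adjusted p = 2.65e-10) in Shox2 cells against Myl2 cells, and -0.22 (adjusted p = 0.00015) between the latter and Stard10 cells.

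Tnni3, the cardiac form that persists in the adult, had the opposite order between ventricular and atrial gates. Its level was 1404, 1486, 1389.9 and 1139 CPM in Myl2 cells, 2031, 2115, 2030.0 and 1615 in Stard10 cells and 1785, 1967, 1728 and 1268 in Shox2 cells. No library of the Stard10 gate was as low as the highest of the Myl2 gate, and Ho2 was the lowest library in each gate. Tnni3 was 1.38-fold higher in Stard10 than in Myl2 cells (log2 0.46, SE 0.041, adjusted p = 4.90e-09). The excess in Shox2 cells was small (log2 0.13, SE 0.041, adjusted p = 0.0125) and lost its call without Wt2 (0.095, adjusted p = 0.107). The call was also lost with Myl7 of at least 25 UMIs per 10000 (0.034, adjusted p = 0.517). Keeping cells with Myl2 and with Stard10 or Shox2 in the Myl2 gate gave 0.028 (adjusted p = 0.619), while total UMIs gave 0.31 (adjusted p = 4.17e-07). Shox2 cells held less than Stard10 cells (log2 -0.34, adjusted p = 7.86e-07, or -0.22 with total UMIs, adjusted p = 6.92e-05).

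Within a library the pair can be read as a ratio, which needs no scaling. Myl2 cells held 67.5 (Wt1), 71.3 (Wt2), 80.1 (Ho1) and 61.4 (Ho2) Tnni3 UMIs per 100 Tnni1 UMIs. Stard10 cells held 124, 118, 131 and 101, and Shox2 cells 115, 120, 122 and 83.7. The cardiac form thus outnumbered the slow form in Stard10 cells of every library and in none of the Myl2 gates, with Ho2 lowest throughout. The log2 ratio was higher in Stard10 than in Myl2 cells by 0.76 ± 0.079 (SD of 4 within-library differences) and in Shox2 cells by 0.64 ± 0.15, in 4 of 4 libraries each. The exact p of both was 0.13, the smallest that 4 differences allow, and 0.302 after adjustment over the 70 ratio comparisons made. Single cells with at least 20 UMIs of the pair covered a broad range: in Wt2 the share of Tnni3 had a median of 42.4% (10th to 90th percentile 19.0% to 57.3%) over 724 Myl2 cells and of 53.8% (39.3% to 66.4%) over 449 Stard10 cells.

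Tnni2, the fast skeletal form, was higher in Stard10 cells than in either other gate. Stard10 cells held 182 (Wt1), 179 (Wt2), 185 (Ho1) and 148 (Ho2) CPM. Myl2 cells held 71.1, 74.4, 71.5 and 65.5, and Shox2 cells 84.6, 64.7, 63.7 and 58.2. Every Stard10 value was above every value of the other gates, which overlapped each other. The log2 fold change was 1.23 (SE 0.059, adjusted p = 1.46e-13) against Myl2 cells, and Shox2 cells were lower than Stard10 cells by a log2 fold change of -1.49 (SE 0.064, adjusted p = 7.15e-14). Between Shox2 and Myl2 cells it was -0.26 (adjusted p = 0.00199) with TMM and -0.083 (adjusted p = 0.275) with total UMIs. This call was also lost with Myl7 of at least 100 UMIs per 10000 (-0.078, adjusted p = 0.312). Without the library block it was lost too (-0.26, adjusted p = 0.0559), so it rested on the scaling, the gate and the block. Thinned to 5000 UMIs, 31.6% to 38.0% of Stard10 cells and 18.5% to 22.0% of Myl2 cells had a Tnni2 UMI, against 2.46% to 3.40% of endothelial cells.

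Of the troponin T genes, Tnnt2, the cardiac form, was nearly level: 3558, 3442, 3215 and 3353 CPM in Myl2 cells, 3725, 3805, 3455 and 3776 in Stard10 cells and 3715, 3556, 3393 and 3522 in Shox2 cells. The gates overlapped. Its log2 fold change in Stard10 against Myl2 cells was 0.062 with TMM (adjusted p = 0.198) and 0.12 with total UMIs (adjusted p = 0.00189). In Shox2 against Myl2 cells TMM gave -0.12 (adjusted p = 0.00996) and total UMIs 0.065 (adjusted p = 0.0555), with CPM higher in 4 of 4 libraries, so that no direction can be given; without Wt2 the TMM value was -0.11 (adjusted p = 0.0547). In Shox2 against Stard10 cells it was -0.18 with TMM (adjusted p = 0.000459) and -0.057 with total UMIs (adjusted p = 0.114).

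Tnnt1, the slow skeletal form, was a minor troponin T at this stage. It was at 128 (Wt1), 118 (Wt2), 87.8 (Ho1) and 121 (Ho2) CPM in Myl2 cells, 98.0, 68.6, 72.3 and 106 in Stard10 cells and 129.6, 116, 114 and 112 in Shox2 cells. Stard10 cells had the lowest value in each library. The fold change in Stard10 cells was -0.46 on the log2 scale (SE 0.083, adjusted p = 0.000109), or -0.18 with a Myl2 limit of 20 (adjusted p = 0.0603), and Shox2 cells were above Stard10 cells by 0.35 (SE 0.087, adjusted p = 0.00276). Shox2 and Myl2 cells did not pass the test with TMM (log2 -0.12, adjusted p = 0.244) or with total UMIs (0.063, adjusted p = 0.53), which differ in sign, and without Ho1 the TMM value was -0.23 (adjusted p = 0.0325). There were 3.60, 3.44, 2.73 and 3.60 Tnnt1 UMIs per 100 Tnnt2 UMIs in Myl2 cells and 2.63, 1.80, 2.09 and 2.81 in Stard10 cells, a log2 difference of -0.53 ± 0.27 in 4 of 4 libraries (exact p = 0.13, adjusted p = 0.302).

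Troponin C came almost wholly from Tnnc1, the cardiac and slow form. It was at 5984, 5752, 5467 and 4709 CPM in Myl2 cells (Wt1, Wt2, Ho1, Ho2), 6848, 7029, 6827 and 5763 in Stard10 cells and 6500.5, 6251, 5639.7 and 4916 in Shox2 cells. As with Tnni3, Ho2 was the lowest library in each gate, and Stard10 cells were above Myl2 cells in every library. The log2 fold change was 0.22 in Stard10 cells (SE 0.040, adjusted p = 0.000154) and -0.31 in Shox2 against Stard10 cells (SE 0.040, adjusted p = 1.84e-06). With total UMIs the latter was -0.19 (adjusted p = 5.48e-05). Shox2 against Myl2 cells gave -0.093 with TMM (adjusted p = 0.0529) and 0.087 with total UMIs (adjusted p = 0.019), opposite in direction. Of 22 alternatives, 11 called Tnnc1 lower here. Among these, leaving out Wt1 gave -0.099 (adjusted p = 0.049) and Myl7 of at least 25 UMIs per 10000 gave -0.18 (adjusted p = 0.00071).

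Tnnc2, the fast skeletal troponin C, was scarcely present, with 1, 5, 16 and 6 UMIs in all Myl2 cells, 12, 15, 19 and 22 in Stard10 cells and 7, 13, 22 and 6 in Shox2 cells. These sums are 0.167 to 0.728, 1.41 to 2.48 and 0.607 to 2.87 CPM. It was called higher in Stard10 (log2 1.91, SE 0.42, adjusted p = 0.000999) and Shox2 cells (log2 1.69, SE 0.45, adjusted p = 0.00299) than in Myl2 cells. Both calls were lost with a Myl2 limit of 5 UMIs per 10000 (0.74, adjusted p = 0.175, and 0.47, adjusted p = 0.387), and that in Shox2 cells also with gates set on cells thinned to 5000 UMIs (0.14, adjusted p = 0.827). With at most 22 UMIs a sum these folds are imprecise.

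Among the actins, Actc1, the cardiac alpha-actin, was at 12245 (Wt1), 14619.5 (Wt2), 12197 (Ho1) and 13407 (Ho2) CPM in Myl2 cells. Stard10 cells had 13948, 16151, 14347 and 16084, and Shox2 cells 10972, 12073, 10227 and 9987. Each library was highest in Stard10 and lowest in Shox2 cells, and every Shox2 value was below every other. The log2 fold change was 0.15 in Stard10 against Myl2 cells (SE 0.045, adjusted p = 0.0132), which was 0.12 without Ho1 (adjusted p = 0.0532) and 0.11 without Ho2 (adjusted p = 0.0966). It was -0.46 in Shox2 against Myl2 cells (SE 0.046, adjusted p = 1.51e-08) and -0.61 against Stard10 cells (SE 0.046, adjusted p = 5.46e-10). With total UMIs these were -0.28 (adjusted p = 3.55e-06) and -0.48 (adjusted p = 4.44e-09).

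Acta1, the skeletal alpha-actin, was graded from Myl2 over Stard10 to Shox2 cells. Myl2 cells had 885 (Wt1), 853 (Wt2), 693 (Ho1) and 919 (Ho2) CPM, Stard10 cells 543, 601, 559 and 688, and Shox2 cells 108, 152, 135 and 113. The gates did not overlap. Against Myl2 cells the log2 fold change was -0.54 in Stard10 cells (SE 0.076, adjusted p = 5.37e-06) and -2.90 in Shox2 cells (SE 0.087, adjusted p = 2.24e-17), and between the latter gates it was -2.36 (SE 0.086, adjusted p = 4.06e-15), a difference of 5.13-fold that 0.991% of all genes tested exceeded in size.

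The same UMIs, read per cell, gave fewer cells with Acta1, which is not independent of the drop in level. Thinned to 5000 UMIs, 79.0% to 85.5% of Myl2 cells, 51.0% to 56.0% of Stard10 cells and 13.4% to 19.8% of Shox2 cells had an Acta1 UMI, over 329, 263 and 306 cells in the smallest libraries, with 231, 66 and 23 shallower cells of Wt1 left out. Endothelial cells, which should lack it, had 2.38% to 4.64%, so that the Shox2 gate was above this background in every library. Median depths before thinning were 8720 to 19701 UMIs in Myl2, 13433 to 16290 in Shox2 and 12135.5 to 15865 in endothelial cells, and unthinned shares were 82.7% to 90.7%, 20.1% to 30.6% and 5.45% to 12.9%.

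Acta2, the smooth muscle actin of the embryonic myocardium, followed another order. It was at 5453, 5690.0, 4739.7 and 5908 CPM in Myl2 cells (Wt1, Wt2, Ho1, Ho2), 4542, 4767, 4263 and 5733 in Stard10 cells and 6805, 6284, 5928 and 7927 in Shox2 cells. Each library was lowest in Stard10 and highest in Shox2 cells, and every Shox2 value was above every value of the other gates, which overlapped each other. The log2 fold change was -0.24 in Stard10 against Myl2 cells (SE 0.046, adjusted p = 0.000221) and 0.36 in Shox2 against Stard10 cells (SE 0.046, adjusted p = 1.33e-06). Shox2 against Myl2 cells gave 0.12 (SE 0.046, adjusted p = 0.0269), and 0.30 with total UMIs (adjusted p = 7.05e-07). The call was lost without Wt1 (0.12, adjusted p = 0.0518), Ho1 (0.11, adjusted p = 0.0607) or Ho2 (0.072, adjusted p = 0.274). It was also lost with Myl7 of at least 25 UMIs per 10000 (0.050, adjusted p = 0.348) or a Myl2 limit of 5 (0.050, adjusted p = 0.399). Mesenchymal markers summed to 76.0 to 94.8 CPM in Shox2 and 24.01 to 46.5 in Myl2 cells, and epicardial markers to 57.2 to 109 and 6.50 to 11.6. Their part in the Acta2 level was not tested.

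As ratios, Acta1 made up 7.23, 5.84, 5.68 and 6.85 UMIs per 100 Actc1 UMIs in Myl2 cells, 3.89, 3.72, 3.90 and 4.28 in Stard10 cells and 0.980, 1.26, 1.32 and 1.13 in Shox2 cells, with no overlap. The ratio in Shox2 cells was below that in Myl2 cells by 2.45 ± 0.36 on the log2 scale, 5.47-fold, in 4 of 4 libraries. Acta2 made up 44.5, 38.9, 38.9 and 44.1 per 100 Actc1 in Myl2 cells, 32.6, 29.5, 29.7 and 35.6 in Stard10 cells and 62.0, 52.1, 58.0 and 79.4 in Shox2 cells. Among these 3 gates the actin pool held most Acta1 in Myl2 cells and most Acta2 in Shox2 cells, the latter 1.95-fold above Stard10 cells (log2 0.97 ± 0.14). Each of these differences had the smallest p that 4 libraries allow (exact p = 0.13, adjusted p = 0.302).

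**Figure D3:**
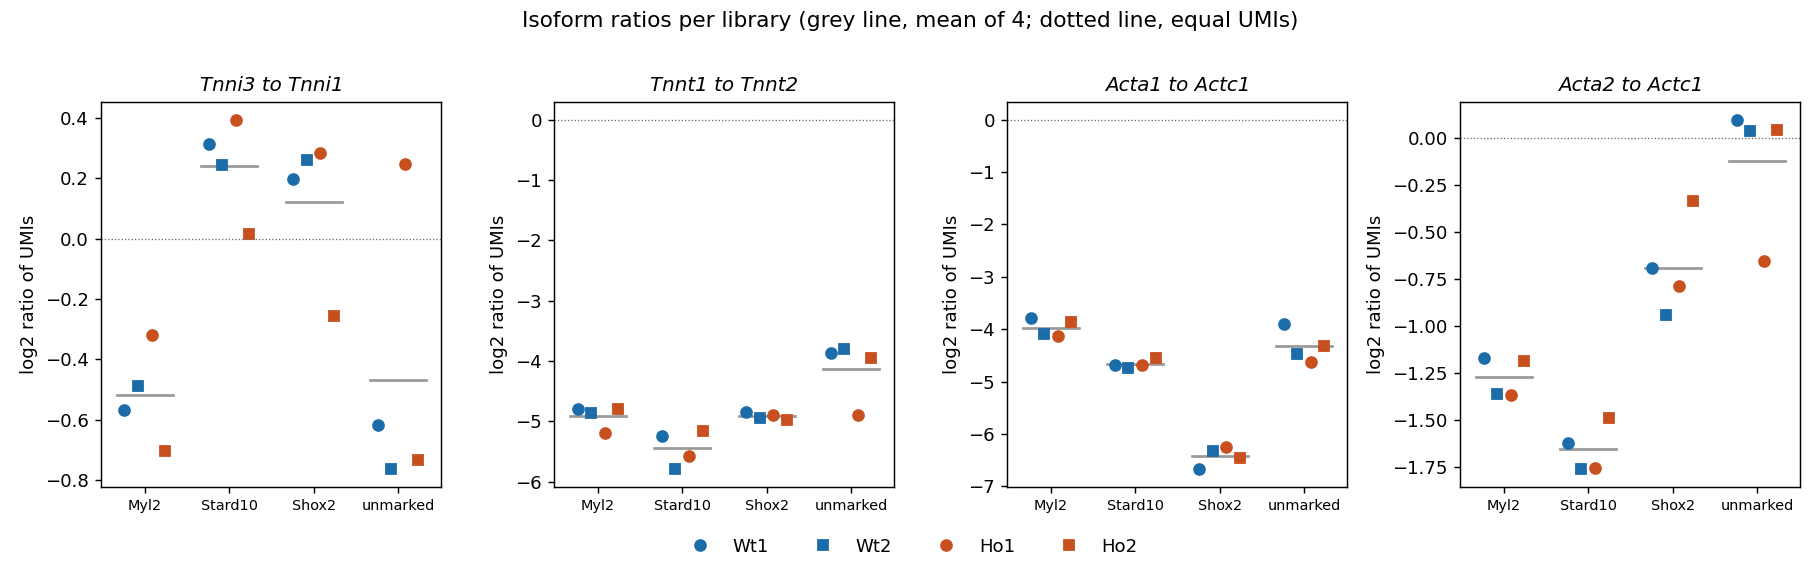
Log2 ratio of summed UMIs (vertical axes) for 4 isoform pairs in Myl2, Stard10, Shox2 and unmarked Myl7 cells, per library (blue Wt, orange Ho; grey line, mean of 4; dotted line, equal UMIs). Tnni3 exceeds Tnni1 in Stard10 cells of all libraries, Acta1 to Actc1 is lowest in Shox2 cells, and Ho1 departs from the other libraries in unmarked cells in all pairs but Acta1 to Actc1.

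Unmarked Myl7 cells, which had little or none of the 3 chamber genes, differed from Myl2 cells in the same members in each library. Tnnt1 was at 234 (Wt1), 268 (Wt2), 137 (Ho1) and 204 (Ho2) CPM, above Myl2 cells by 0.86 ± 0.23 on the log2 scale, and Acta2 at 7721, 9352, 5276 and 7632, above by 0.44 ± 0.24. Actc1 at 7202, 9114, 8303 and 7388 CPM was lower by 1.64-fold, Acta1 at 481, 412, 338 and 369 by 2.10-fold, and Tnni2 at 33.3, 37.6, 23.1 and 22.9 by 2.47-fold. Tnni1, at 1702, 1863, 1712 and 1563 CPM, was lower by 1.13-fold, and Tnnc2, with 4, 6, 18 and 20 UMIs, was higher by 8.12-fold. All of these held in 4 of 4 libraries (exact p = 0.13, the smallest possible). Acta2 reached 107, 103 and 103 UMIs per 100 Actc1 UMIs in Wt1, Wt2 and Ho2, the only one of the 4 gates in which it equalled the cardiac actin, and 63.5 in Ho1.

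Ho1 also stood apart in Tnni3 of these cells, with 2029 CPM against 1108, 1097 and 941. The 5 mesenchymal markers summed to 275, 328, 162 and 237 CPM in unmarked cells (Cthrc1 the most abundant, none at 0), against 24.01 to 46.5 in Myl2 cells, and were lowest in Ho1. The 4 epicardial markers summed to 149.6, 71.1, 101 and 234 CPM (Upk3b the most abundant, none at 0), against 6.50 to 11.6. Their part in the levels of the members was not tested.

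The genotype comparison asked whether the Cyp51 mutation changed these transcripts. No member was called in any set of Myl7 cells. In simulated sums of all Myl7 cells, the fit called 64 of 200 genes changed by a log2 of 0.5 and 157 changed by 1. A change of under 0.5 could thus be missed. In all Myl7 cells 8 of 10 members had a log2 fold change below 0, from -0.22 to 0.27, with a median of -0.135 against 0.00383 over all genes, and the lowest adjusted p was 0.801. Here edgeR called 0% of the 14647 genes tested, 895 of which had an unadjusted p under 0.05, while DESeq2 called 24.

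The largest negative values were in Tnnc1, Tnnt1 and Tnni2. Tnnc1 was at 6283 and 6219 CPM in the Wt and at 5808 and 4990.3 in the Ho libraries (log2 -0.22, SE 0.19, adjusted p = 0.842). Both Ho values were below both Wt values, and Ho2 accounted for most of the distance. Tnni2 had 100.3 and 96.6 against 93.0 and 77.6 CPM (log2 -0.21, SE 0.12, adjusted p = 0.801), and Tnni1 1791 and 1932 against 1634 and 1686 (log2 -0.18, SE 0.13, adjusted p = 0.824). These also did not overlap.

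Tnnt1 had 126 and 114 against 89.1 and 121 CPM, and Tnni3 1624 and 1721 against 1655 and 1299. The Ho libraries disagreed, Tnnt1 being low in Ho1 alone and Tnni3 in Ho2 alone. Their log2 fold changes were -0.21 (SE 0.12, adjusted p = 0.801) and -0.18 (SE 0.17, adjusted p = 0.856). Tnnt2 had 3596 and 3608 against 3333 and 3485 CPM, without overlap but with a log2 fold change of -0.093 (SE 0.15, adjusted p = 0.915).

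The actins were closest to 0. Actc1 was at 12117 and 14463 against 12492 and 12869 CPM (log2 -0.080, SE 0.21, adjusted p = 0.952) and Acta2 at 5712 and 5663 against 4619.8 and 6289 (log2 -0.081, SE 0.18, adjusted p = 0.945). Acta1 was at 581 and 665 against 585 and 677 CPM (log2 0.0030, SE 0.11, adjusted p = 0.999). The libraries overlapped in all 3 actins, and for Acta2 the Ho libraries lay on either side of the Wt libraries. Tnnc2, with 25, 43, 82 and 55 UMIs, was the highest member (log2 0.27, SE 0.25, adjusted p = 0.857).

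Leaving out 1 library showed how far these values depended on it. Without Ho1, Tnni3 (-0.43, adjusted p = 0.0157), Tnni2 (-0.41, adjusted p = 0.0245) and Tnnc1 (-0.39, adjusted p = 0.0288) were called lower, and without Ho2, Tnnt1 was (-0.38, adjusted p = 0.0273), under the assumption in edgeR that the lone Ho library varied like the Wt libraries. In the other direction, without Ho2 Tnni2 was -0.036, Tnnc1 -0.059 and Tnni3 0.031, and without Ho1 Tnnt1 was -0.056. The Ho libraries thus differed from each other in which troponin was low, and the test of both found no call.

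**Figure D4:**
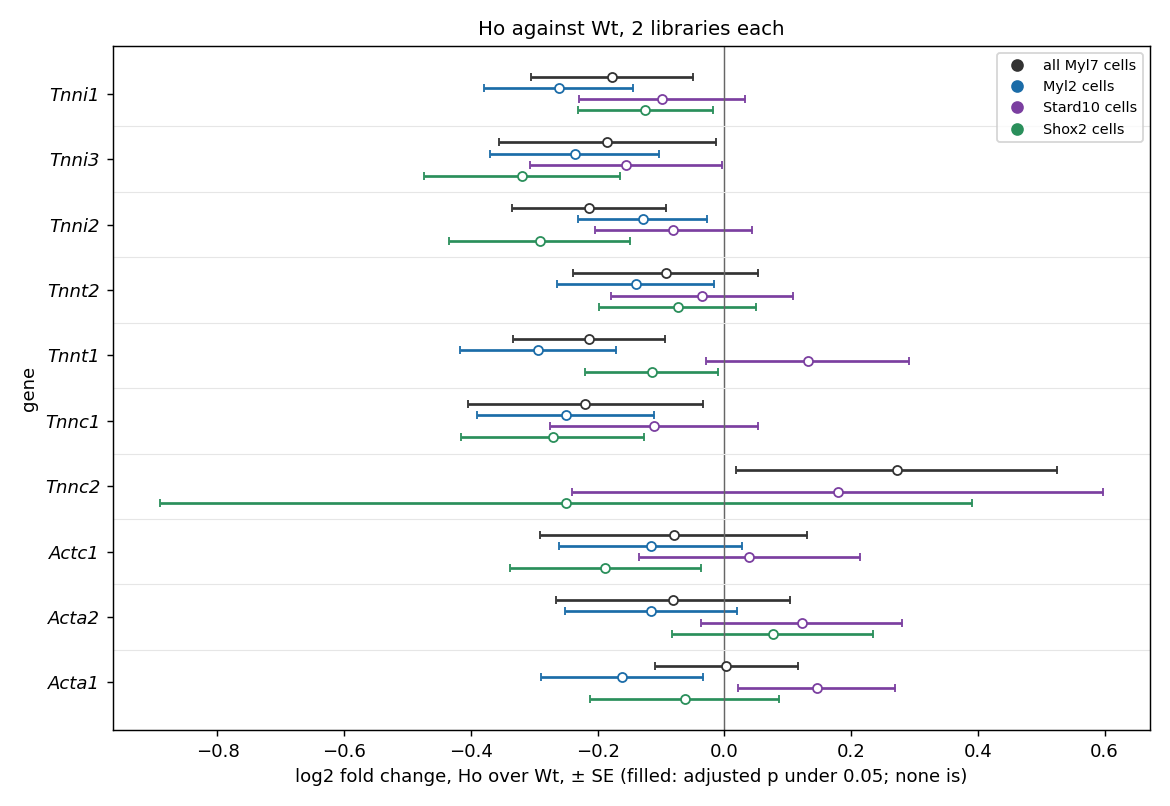
Log2 fold change of Ho over Wt ± SE (horizontal axis) for each gene in all Myl7, Myl2, Stard10 and Shox2 cells, 2 libraries against 2; open points have an adjusted p of at least 0.05. All points are open, and in all Myl7 cells 8 of 10 lie below 0.

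Within the Myl2, Stard10 and Shox2 gates the tested members ranged from -0.32 to 0.18. In Myl2 cells, where 0.016% of 12527 genes were called, Tnnc2 did not pass the filter on low counts and all 9 other members were below 0. Tnnt1 (log2 -0.29, SE 0.12, adjusted p = 0.563) and Tnni1 (log2 -0.26, SE 0.12, adjusted p = 0.582) were the lowest, with unadjusted p-values of 0.0321 and 0.0434 from the same fit. Tnni1 was lower in both Ho libraries (1735 and 1855 CPM) than in both Wt libraries (2079 and 2084), while Tnnt1 was low in Ho1 only. Without Ho2 the Tnnt1 value was -0.49 (adjusted p = 0.000975), and without Ho1 Tnni3 was -0.43 (adjusted p = 0.0153) and Tnnc1 -0.40 (adjusted p = 0.0218). Conversely, Tnnt1 was -0.11 without Ho1, and Tnni3 was -0.065 and Tnnc1 -0.11 without Ho2.

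In Stard10 cells, with 0.108% of 12024 genes called, members ranged from -0.16 (Tnni3) to 0.18 (Tnnc2) and 5 of 10 were below 0. Leaving out 1 library, Tnni3 ran from -0.39 to 0.039 there, the latter without Ho2. In Shox2 cells, with 0% of 11815 genes called (606 at an unadjusted p under 0.05, 2 by DESeq2), 9 of 10 members were below 0, and the lowest were Tnni3 (log2 -0.32, SE 0.15, adjusted p = 0.955), Tnni2 (-0.29, SE 0.14, adjusted p = 0.955) and Tnnc1 (-0.27, SE 0.145, adjusted p = 0.955). Tnni3 was lower in both Ho libraries, at 1728 and 1268 CPM against 1785 and 1967, most of it in Ho2. Without Ho1 it was -0.60 (adjusted p = 8.42e-05) and Tnnc1 -0.41 (adjusted p = 0.0178), and without Ho2 they were -0.084 and -0.14. Tnni2 was -0.066 without Wt1, -0.49 without Wt2, and -0.022 with gates set on cells thinned to 5000 UMIs.

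In unmarked cells 0% of 10802 genes were called (811 at an unadjusted p under 0.05, 0 by DESeq2). The values spread more widely here: Tnnt1 was at -0.54 (SE 0.17, adjusted p = 0.448), Tnni2 at -0.61 (SE 0.18, adjusted p = 0.448) and Tnni3, through Ho1 alone, at 0.46 (SE 0.27, adjusted p = 0.767). Tnnc2, with 4 and 6 UMIs in the Wt and 18 and 20 in the Ho libraries, had the highest value (1.44, SE 0.49, adjusted p = 0.527). With gates set on cells thinned to 5000 UMIs, Tnni2 was at 0.17 (adjusted p = 0.943). Without Ho2 Tnni3 was 0.93 (adjusted p = 0.000426) and Tnnt1 -0.83 (adjusted p = 0.0022), and without Ho1 Tnni3 was -0.24 (adjusted p = 0.847) and Tnnt1 -0.31.

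The difference of the genotype effect between Stard10 and Myl2 cells was tested as an interaction, which called 0.117% of 12773 genes and no member. Tnnt1 (log2 0.44, SE 0.10, adjusted p = 0.119), Acta1 (0.30, SE 0.072, adjusted p = 0.138) and Acta2 (0.22, SE 0.057, adjusted p = 0.194) came nearest, in each case with Ho against Wt lower in Myl2 than in Stard10 cells. For Acta1 the Ho values were 693 and 919 CPM against 885 and 853 in Myl2 cells and 559 and 688 against 543 and 601 in Stard10 cells, overlapping in both gates. These calls depended on the libraries and on the processing. Leaving out 1 library, Tnnt1 was called without Wt1 (0.62, adjusted p = 0.000149), Ho1 (0.47, adjusted p = 0.0448) or Ho2 (0.42, adjusted p = 0.0366), Acta1 without Wt2 (0.40, adjusted p = 0.0336) or Ho2 (0.38, adjusted p = 0.000669), and Acta2 without Ho1 (0.26, adjusted p = 0.00836). Without Wt2 the Tnnt1 value was 0.21, not called, and without Wt1 the Acta1 value was 0.21, not called. With all 4 libraries and no filter on low counts, Tnnt1 (adjusted p = 0.00711), Acta1 (adjusted p = 0.00635) and Acta2 (adjusted p = 0.00746) were called. Tnnt1 was also called with a Myl2 limit of 5 (0.51, adjusted p = 0.0116) and with gates set on cells thinned to 5000 UMIs (0.58, adjusted p = 0.00589). Acta2 was called on the thinned gates (0.30, adjusted p = 0.0259) and with mixed cells kept among the Myl2 cells (0.29, adjusted p = 0.0454).

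Isoform ratios were compared between 2 libraries of each genotype, where the smallest exact p is 0.33, so that no difference could pass the test. In Myl7 cells there were 90.7 and 89.1 Tnni3 UMIs per 100 Tnni1 UMIs in the Wt and 101 and 77.1 in the Ho libraries, so that the Ho libraries lay on both sides. Acta2 per 100 Actc1 was 47.1 and 39.2 against 37.0 and 48.9, and Acta1 per 100 Actc1 4.79 and 4.60 against 4.69 and 5.26. Of the 25 comparisons of 5 ratios in the 5 sets of Myl7 cells, the genotypes did not overlap in 5, each at the smallest exact p, 0.33 (adjusted p = 0.631). Of these, 3 were Tnnc2 to Tnnc1, the rarest pair. The others were Tnnt1 to Tnnt2 in unmarked cells and Acta1 to Actc1 in Stard10 cells, with a difference of 0.10 ± 0.075 on the log2 scale. Where genotypes do not differ, 2 libraries against 2 lack overlap with a probability of 0.33, and 5 of 25 is below that share.

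Outside the myocytes the members were at low levels but not in equal proportion. Cells with under 20 Myl7 UMIs per 10000 and 1 marker set were compared: endothelial cells numbered 1284, 1797, 1819 and 1131 and mesenchymal cells 3304, 1358, 962 and 809 (Wt1, Wt2, Ho1, Ho2). Most cardiac forms were at about 1% of their level in Myl7 cells of the same library, a level that free RNA of the suspension could give to every cell: Actc1 was at 46.5, 82.4, 84.4 and 61.4 CPM and Tnni3 at 5.98, 11.4, 12.8 and 6.78 in endothelial cells. The part of free RNA was not tested.

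Tnni1, Tnnt1 and Tnni2 did not share that proportion. Tnni1 was at 166, 176, 181 and 154 CPM in endothelial cells, 9.11% to 11.1% of the level in Myl7 cells, and at 142, 343, 382 and 291 in mesenchymal cells. Tnnt1 was at 14.3, 14.8, 16.5 and 17.2 CPM in endothelial cells, 11.4% to 18.5%, and Tnni2 there at 5.75% to 8.01%. The troponin I pair held 3.59, 6.46, 7.07 and 4.41 Tnni3 UMIs per 100 Tnni1 UMIs in endothelial cells, 17.2-fold below Myl7 cells. Mesenchymal cells showed Acta2 at 394, 1024, 620.0 and 1144 CPM, 14.8-fold above endothelial cells in the mean of 4 libraries (4 of 4, exact p = 0.13), and 348, 404, 256 and 450 Acta2 UMIs per 100 Actc1 UMIs.

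Between genotypes no member was called in endothelial cells (0.0221% of 13586 genes called) or mesenchymal cells (0% of 13221 called, 562 at an unadjusted p under 0.05, 2 by DESeq2), and 9 of 10 members passed the filter in each. In endothelial cells 1 of the 9 was below 0, and their median was 0.212, against 0.000609 over all genes. The 8 cardiomyocyte markers summed to 171 and 234 CPM in the Wt and 284 and 210 in the Ho libraries of these cells, with Myl7 the most abundant and none at 0. Both Ho values were above both Wt values for Tnnt1 (log2 0.25, SE 0.098, adjusted p = 0.899) and for Acta1 (4.47 and 6.715 CPM in Wt, 8.51 and 6.723 in Ho, log2 0.48, SE 0.21, adjusted p = 0.914). With no filter on low counts, Tnnt2 was called in mesenchymal cells (log2 0.60, SE 0.18, adjusted p = 0.0448). Wt1, which held the most mesenchymal cells, was the lowest library there for all 9 tested members but Tnni2, and the cardiomyocyte markers were also lowest in it, at 173 CPM against 319, 368 and 319 in Wt2, Ho1 and Ho2. The part of myocyte RNA in these values was not tested.

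**Figure D5:**
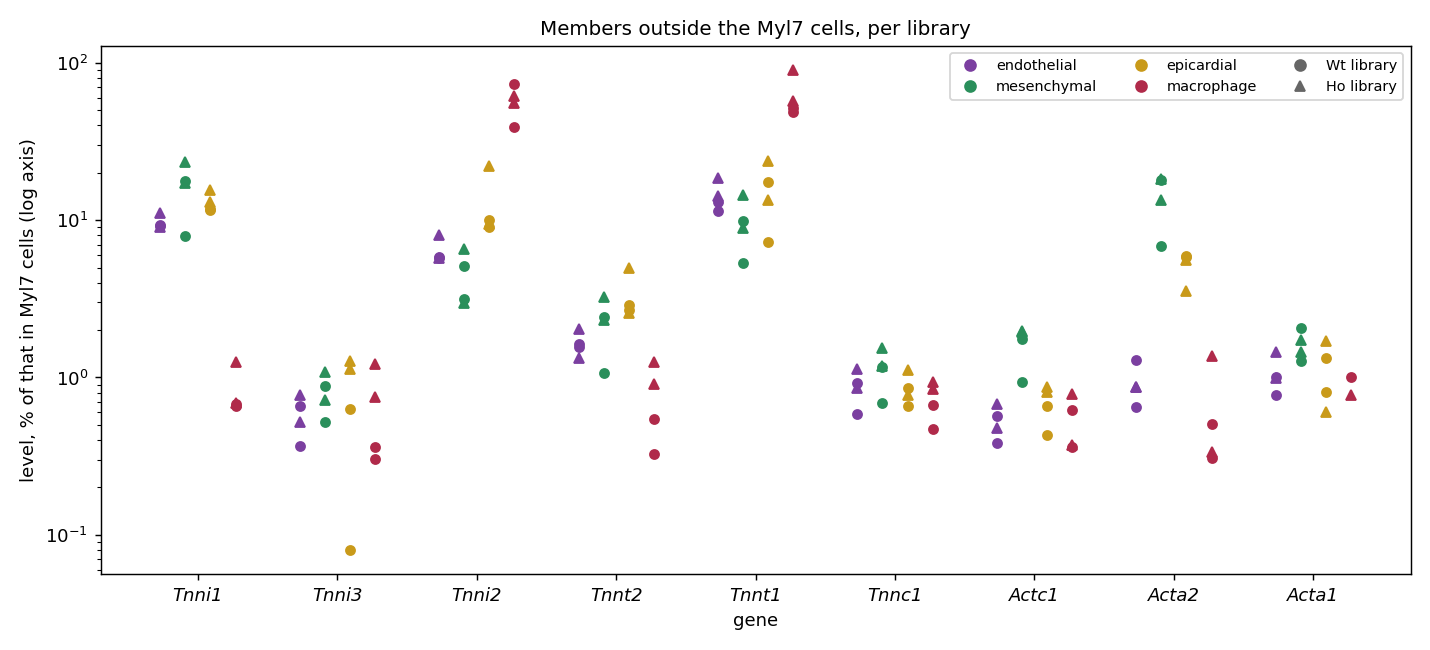
Level of 9 members in endothelial, mesenchymal, epicardial and macrophage cells as a percentage of the level in Myl7 cells of the same library (log axis; circles Wt, triangles Ho libraries; a value of 0, Acta1 in macrophage cells of Wt2 and Ho2, is not drawn). Most cardiac forms lie near 1%, while Tnni1 and Tnnt1 lie near 10% in endothelial cells and Tnnt1 and Tnni2 lie above 39% in macrophage cells.

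Other genes of the contractile machinery were read from 4 lists. Of 36 thin filament, thick filament and Z disc genes 34 were tested. In Stard10 against Myl2 cells 9 were called higher and 15 lower, with a median log2 fold change of -0.0607. In Shox2 against Myl2 cells 8 were higher and 22 lower, with a median of -0.593. The members were split there, with 5 called lower, among them Acta1, Actc1 and Tnni1. The 3 called higher were Tnnc2 (log2 1.69), Tnni3 (0.13) and Acta2 (0.12). Over all genes tested, 16.9% were higher and 17.6% lower in Stard10 cells with a median of -0.000157, and 27.9% and 27.2% in Shox2 cells with a median of 0.0185, while 49.5% and 73.2% of the genes of at least 50 CPM were called in either direction. These shares are the background of all 4 lists. The ventricular myosin Myh7 was at 3101, 3326, 2860.1 and 3747 CPM in Myl2 and at 147 to 219 in Stard10 cells (log2 -4.16, adjusted p = 4.55e-23). The fast skeletal troponin T Tnnt3 was, like Tnni2, higher in Stard10 than in Myl2 cells, with 45.2, 56.9, 53.4 and 45.4 CPM in Stard10 and 5.34 to 10.6 in Myl2 cells (log2 2.56, adjusted p = 2.00e-15). The Z disc and intercalated disc protein Nrap had 9.67 to 13.7 CPM in Myl2 and 2.37 to 3.57 in Stard10 cells (log2 -2.12, adjusted p = 5.69e-10).

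Of 15 smooth muscle genes 8 were called higher and 4 lower in Stard10, and 8 higher and 5 lower in Shox2 than in Myl2 cells, with medians of 0.235 and 0.266. Mylk, the myosin light chain kinase of smooth muscle, rose by a log2 fold change of 1.72 (adjusted p = 1.74e-06) and the smooth muscle actin Actg2 by 1.73 (adjusted p = 0.000119) in Stard10 cells, where Acta2 fell. Myh11 was at 1.23 (adjusted p = 0.0228), a value that was 0.90 without Ho1 (adjusted p = 0.204) and 1.28 without Ho2 (adjusted p = 0.0783). All 3 were at low levels, at most 3.95 CPM in Myl2 and Stard10 cells.

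Of 13 skeletal muscle genes only 5 passed the filter, 2 higher and 1 lower in Stard10 and 1 higher and 3 lower in Shox2 than in Myl2 cells (medians 1.04 and -0.206). Casq1, a calcium store protein of fast muscle, rose with Tnni2 (log2 1.16, adjusted p = 1.82e-09; 117 to 171 CPM in Stard10 and 52.9 to 76.9 in Myl2 cells). Creatine kinase Ckm was lower (log2 -1.67, adjusted p = 3.24e-10), and Actn3 was at 1.13 (adjusted p = 0.133), or 1.86 without Wt2 (adjusted p = 0.0219). Of 24 cardiac and muscle regulators 9 were higher and 8 lower in Stard10 (median 0.111), with Irx4 (-5.68), Hey2 (-5.20) and Nr2f2 (4.76) the most changed, and 11 higher and 10 lower in Shox2 cells (median 0.0638).

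In Ho against Wt Myl7 cells no gene of the 4 lists was called, and 1 of 34, 0 of 15, 1 of 6 and 4 of 24 tested genes, in the same order, had an unadjusted p under 0.05, beside 895 of all 14647 genes. The largest changes by list were in Mybphl (log2 -0.28), Tpm2 (-0.22) and Nrap (0.20) of the filament genes, in Myh11 (0.47), Actg2 (0.26) and Mylk (-0.21), in Actn3 (0.48), Ryr1 (-0.44) and Mylpf (0.38), and in Tbx3 (0.64), Isl1 (-0.44) and Hand1 (-0.42). Single libraries moved these values: leaving out 1, Nrap ran from 0.0096 to 0.47, Tpm2 from -0.34 to -0.11, Mybphl from -0.36 to -0.19, Mylk from -0.33 to -0.087, Ryr1 from -0.67 to -0.27 and Mylpf from 0.22 to 0.53. Isl1 ran from -1.24 to 0.087 and Hand1 from -0.80 to 0.19, and Actg2, Actn3 and Myh11 also changed sign. Tbx3, a repressor of the working myocardium programme, had the lowest adjusted p among them, 0.570, with 11.5 and 9.76 CPM in Wt and 15.4 and 17.8 in Ho libraries. It was called without Ho1 (0.69, adjusted p = 0.00579) and without Ho2 (0.60, adjusted p = 0.0134), and Mylpf (0.53, adjusted p = 0.000569) and Isl1 (-1.24, adjusted p = 2.44e-05) without Ho2. With all 4 libraries and no filter on low counts, Tbx3 (0.64, adjusted p = 5.57e-06), Isl1 (-0.44, adjusted p = 0.00836), Hand1 (-0.41, adjusted p = 0.016) and Mylpf (0.39, adjusted p = 0.0248) were called.

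Genes whose levels followed a member most closely were found over the 16 sums of Myl2, Stard10, Shox2 and unmarked cells in 4 libraries, by Pearson's r of log2(CPM + 1). The sums of a library share its cells and depth, so r is a description. Actc1 was followed by Chchd10 (r = 0.976), Prdx6 (0.926) and Uchl3 (0.925). Acta1 was followed by Pde4dip (0.974), Hspb7 (0.958) and Mylk3 (0.953), and Acta2 by Gde1 (0.947), Wdr1 (0.926) and Rock1 (0.926). For Tnni2 they were Casq1 (0.932), Arl5a (0.928) and Hacd2 (0.906), for Tnnt1 Rassf3 (0.920), Myh10 (0.919) and Gsn (0.913), and for Tnni3 Apip (0.903), Ndufa11 (0.890) and Hspb3 (0.887). Tnni1 was close to Atp5a1 (0.903) and Etfa (0.891), and Tnnc1 to Polr3k (0.904), Srsf7 (0.840) and Dnajc15 (0.838). Tnnt2, the most level member, had no close follower (highest r 0.764, 4933434E20Rik, then Ngrn, 0.762, and Zmym3, 0.758).

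Gene positions were read from the GENCODE M21 annotation (GRCm38). Tnnt1 (chr7:4504570-4516382) and Tnni3 (chr7:4518305-4524229) lie side by side on the minus strand, and of this pair Tnni3 was higher and Tnnt1 lower in Stard10 than in Myl2 cells. Tnni1 (chr1:135779434-135810989) and Tnnt2 (chr1:135836354-135852260) lie on the plus strand of chromosome 1. Tnni2 lies at chr7:142441808-142444410, Tnnc1 at chr14:31208312-31211729, Tnnc2 at chr2:164777161-164779967, Actc1 at chr2:114047282-114053548, Acta1 at chr8:123891769-123894751 and Acta2 at chr19:34241090-34255590. Tnni3 overlaps Dnaaf3 on the same strand, so that reads of the overlap could be counted for either or for none, and the actin genes are near-identical in coding sequence; reads lost to several matches were not analysed here.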

How the data were processed

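Droplet libraries made with a 3′ chemistry were aligned and counted by the authors with Cell Ranger 6.1.1, and the deposited matrices hold unnormalised UMI counts per gene and cell on mm10 (Seurat 4.1.0 is also named in the processing notes). Cells with 500 to 50000 UMIs, 500 to 6000 genes and at most 20% mitochondrial UMIs were kept, and doublets called with Scrublet in scanpy 1.11.5 were removed (746, 464, 440 and 334 in Wt1, Wt2, Ho1 and Ho2). UMIs were summed by library and gate; cells with Myl2 and with Stard10 or Shox2 (156, 311, 693 and 332) entered no chamber gate. Other cells had under 20 Myl7 UMIs and at least 5 marker UMIs per 10000. Sums were tested with edgeR 4.0.16 in R 4.3.3 (TMM, filterByExpr, quasi-likelihood) at a Benjamini-Hochberg adjusted p of 0.05 over all genes, with the library as a block for chambers, and log2 ratios of summed UMIs by two-sided exact permutation tests (scipy 1.17.1). Scripts were tested on simulated data. Intervals and shares cover counting error only. Members and lists were chosen with earlier results of these data known. Beside the members, the 3 genes of each list with the largest change, and for members of at least 10 CPM the 3 genes of at least 20 CPM with the highest r, are named, except 1 gene that is not reported here. GENCODE M21 held 99.6% of the gene identifiers. Tnni2 had no promoter entry.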

Additional observations from a re-analysis of the deposited data

Results flagged for a closer look

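In cell classes that no comparison of the genotypes used, 3 members were at least 2 times their level in endothelial cells of the same library, in every library with at least 20 cells of the class. Tnnt1, the slow skeletal troponin T, was at 64.7, 56.1 and 80.2 CPM (22, 43 and 71 UMIs) in the macrophage cells of Wt1, Wt2 and Ho1, with a mean of 67.0 CPM and 3.78 to 4.87 times the endothelial level. Tnni2, the fast skeletal troponin I, was at 73.6, 37.8 and 52.0 CPM (25, 29 and 46 UMIs) there, with a mean of 54.4 CPM and 6.81 to 12.6 times the endothelial level. These sums came from 23, 29 and 42 cells, and Ho2, with 7 such cells, was left out of the means. The cardiac forms were scarce in the same cells: Tnni3 was at 0.303% to 1.22% and Actc1 at 0.364% to 0.787% of the level in Myl7 cells over the 4 libraries. The 6 macrophage markers summed to 3289, 4297, 2458 and 1931 CPM, with Fcer1g the most abundant and none at 0.

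Acta2, the smooth muscle actin, was at 331, 336, 163 and 349 CPM in the epicardial cells (47, 85, 39 and 62 cells in Wt1, Wt2, Ho1 and Ho2), with a mean of 294.6 CPM and 4.09 to 8.87 times the endothelial level. Mesenchymal markers summed to 227, 182, 188 and 169 CPM in these cells, with Twist1 the most abundant and none at 0. The 8 cardiomyocyte markers summed to 1119, 1185, 1485 and 1256 CPM, with Myl7 the most abundant and none at 0, against 171 to 284 in endothelial cells. The part of either list in the Acta2 level was not tested.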

How the results depend on the processing

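Of 26 called chamber differences of members, 14 were called under all 22 alternatives: Tnni1, Tnni3, Tnni2 and Acta1 in Stard10 against Myl2 cells, Tnni1, Actc1 and Acta1 in Shox2 against Myl2 cells, and Tnni1, Tnni2, Tnnt1, Tnnc1, Actc1, Acta1 and Acta2 in Shox2 against Stard10 cells. The other 12 lost the call at least once. The cause of these changes was not tested.

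In Ho against Wt the numbers of called genes moved in each set. DESeq2 called 24 in Myl7, 15 in Myl2, 8 in Stard10, 2 in Shox2, 26 in endothelial and 2 in mesenchymal cells, and 0 for the interaction. No filter on low counts gave 218, 153, 71, 96, 212 and 475 in these sets, 157 in unmarked cells and 72 for the interaction. At least 10 counts in every sum gave 14, 7 and 1 in Myl2, Stard10 and Shox2 cells, and thinned sums 0, 8, 2 and, for the interaction, 2. Scaling by total UMIs gave 13 in Myl2 and 0 in endothelial cells, and RLE factors 22 in Stard10 cells and 7 for the interaction. In Myl2 cells 10% mitochondrial UMIs gave 6, 2000 UMIs 7, doublets kept 1, and 0 came from Myl7 of at least 25, a Myl2 limit of 5, 2 UMIs of Stard10 and Shox2, gates on thinned cells or mixed cells kept. Doublets kept gave 0 in Stard10, 2 in unmarked and 0 in endothelial cells. Myl7 of at least 100 gave 23, 1 and 7 in Stard10, Shox2 and unmarked cells. In Shox2 cells a Myl2 limit of 5 gave 2, and 2 UMIs of Stard10 and Shox2 or gates on thinned cells 3. For the interaction the limits gave 6 (10% mitochondrial), 2 (no upper limits), 2 (doublets kept), 6 and 3 (Myl7 of 25 and 100), 25 and 3 (Myl2 of 5 and 20), 0 (2 UMIs) and 23 (thinned gates).

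Leaving out 1 library gave 0 to 275 calls in Myl7, 17 to 241 in Myl2, 32 to 61 in Stard10, 2 to 309 in Shox2, 0 to 390 in unmarked, 0 to 217 in endothelial and 0 to 19 in mesenchymal cells, and 14 to 94 for the interaction. Log2 fold changes in Myl7 cells then ran from -0.087 to 0.11 (Acta1), -0.25 to 0.077 (Acta2), -0.20 to 0.0565 (Actc1), -0.43 to 0.031 (Tnni3), -0.20 to 0.63 (Actg2), -0.53 to 1.65 (Actn3), -0.80 to 0.19 (Hand1), -1.24 to 0.087 (Isl1) and -0.13 to 1.00 (Myh11). Tnni3 ran from -0.39 to 0.039 in Stard10 and from -0.24 to 0.93 in unmarked cells, and Tnnc2 in Shox2 against Stard10 cells from -0.70 to 0.36. Log2 ratios in Ho minus Wt ran from -0.222 to 0.172 (Tnni3 to Tnni1), -0.317 to 0.0594 (Tnnt1 to Tnnt2), -0.0023 to 0.164 (Acta1 to Actc1) and -0.216 to 0.186 (Acta2 to Actc1).

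Other values changed sign. Acta1 in Myl7 cells was -0.00475 without upper limits and -0.000517 with Myl7 of at least 25, and Tnni2 in unmarked cells 0.17 on thinned gates. In Shox2 against Myl2 cells total scaling gave Tnnc1 0.087, Tnnt1 0.063 and Tnnt2 0.065, and a Myl2 limit of 20 gave Tnnt1 0.13. The Tnnt1 to Tnnt2 ratio there was -0.0991 to 0.0599 without 1 library, -0.000824 without upper limits, -0.00976 with 2000 UMIs, -0.150 with Myl7 of 100, and -0.112 and 0.235 with Myl2 limits of 5 and 20. In Stard10 minus Myl2 cells the Tnni3 to Tnni1 ratio was 0.675 with Myl7 of 100 and 0.661 with mixed cells kept, and the Acta2 to Actc1 ratio -0.498 and -0.282 with Myl2 limits of 5 and 20 and -0.238 with mixed cells kept.

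A replicate block on the numbers in the library names gave 0 calls in Myl7, 132 in Myl2, 38 in Stard10, 0 in Shox2, 54 in unmarked, 0 in endothelial and 0 in mesenchymal cells. Deviations of libraries with the same number had a correlation of -0.0858 over 14651 genes in Myl7 cells. With 2 libraries of each genotype, this value cannot show whether libraries of the same number shared a litter, day or batch.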

Other observations

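The balance of isoforms also varied from cell to cell in the unmarked gate, as a value that no comparison used. Of the cells with at least 20 UMIs of Acta2 and Actc1, the share of Acta2 had a median of 50.8%, 50.9%, 31.7% and 53.4% in unmarked cells of Wt1, Wt2, Ho1 and Ho2, with a 10th to 90th percentile from 14.3% to 81.1% in Wt2. The Tnni3 share of Tnni3 and Tnni1 had a 10th percentile of 0% in unmarked cells of Wt1 and Wt2, 2.13% in Ho2 and 26.7% in Ho1. These values cover the 119, 159, 198 and 178 cells (Wt1, Wt2, Ho1, Ho2) with at least 20 UMIs of that pair. The limit left out 141, 152, 130 and 163 unmarked cells, and 61, 77, 77 and 76 for the actin pair. Cells with both Myl2 and an atrial or sinus gene held Acta1 at 863, 869, 750.2 and 1191 CPM.

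Cells with at least 1 UMI of Myf5, Myod1 and Myog together per 10000, under 20 Myl7 UMIs per 10000 and no other marker set numbered 60 in Wt1 and 0 in each other library. They held Tnnt1 at 34.7 CPM (32 UMIs), Tnni2 at 2.17 (2 UMIs) and no Tnnc2 UMI in 920898.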
